A study of Homo sapiens with 2 samples.

Results

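The forkhead (FOX), SOX, paired-box (PAX) and T-box (TBX) genes encode families of transcription factors that direct embryonic patterning and cell identity. The numbered members of these families were examined for accessible chromatin in B2B cells. Protein-coding genes of the annotation whose symbol is FOX with a letter from A to S and a number, or SOX, PAX or TBX with a number, were taken, without FOXA1, FOXA2, FOXJ1, SOX2 and SOX9. This gave 81 members of 20007 protein-coding genes, with 42 FOX, 17 SOX, 9 PAX and 13 TBX genes. The rule itself uses gene symbols and no measured value.

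The cells are BEAS-2B, called B2B, which come from human bronchial epithelium, are immortalized but not cancerous, carry a wild-type genotype label, and were left untreated. Each of 2 replicates gave its own list of peaks. The study used this line as the comparator for lung cancer cells, in work on AP-1 and oncogene transcription. The assay was ATAC-seq, where the Tn5 transposase places sequencing adapters into accessible DNA. Only these 2 samples of 1 group were analysed here, so values are compared between replicates and with all protein-coding genes, and no test between conditions was run.

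Forkhead factors bind DNA through a winged-helix domain, and some of them can open compacted chromatin. SOX factors bend DNA with an HMG box, PAX factors bind through a paired domain and often a homeodomain, and TBX factors bind through the T-box domain. In the lung, FOXF1, TBX4 and TBX5 are known for their roles in the mesenchyme and FOXP factors for roles in the epithelium, whereas the FOXO and FOXK factors act in most cell types downstream of insulin and nutrient signals.

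Most promoters of these genes are rich in CpG dinucleotides, among them many without a peak. As examples, 2 promoters that had a peak in both replicates and differ in CpG count are shown as the 200 bases upstream of the transcription start site (TSS), read from the hg38 genome in the direction of the gene, with each CpG in capitals. TBX18 (chr6:84764599-84764798, minus strand) holds 17 CpG and FOXK1 (chr7:4682095-4682294, plus strand) holds 38. Over all 81 members the median was 16 CpG in this window, beside 15 over all protein-coding genes.
TBX18: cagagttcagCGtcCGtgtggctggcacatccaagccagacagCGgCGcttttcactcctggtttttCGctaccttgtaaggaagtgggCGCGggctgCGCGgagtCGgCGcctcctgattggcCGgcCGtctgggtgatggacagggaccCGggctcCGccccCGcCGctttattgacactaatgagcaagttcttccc
FOXK1: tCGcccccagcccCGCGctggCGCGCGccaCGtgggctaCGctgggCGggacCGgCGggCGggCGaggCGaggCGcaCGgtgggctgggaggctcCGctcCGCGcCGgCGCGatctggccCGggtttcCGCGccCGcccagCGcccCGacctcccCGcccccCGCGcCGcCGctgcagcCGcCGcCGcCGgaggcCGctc

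Away from promoters, some accessible regions near members held the AP-1 motif, the letters TGACTCA or TGAGTCA, which are reverse complements of each other. Of these, 4 are shown as 201 bases around the summit, on the plus strand of hg38, with the motif in capitals, because AP-1 is the factor the study is about. The FOXP4 region (chr6:41581455-41581655) lies in an intron of that gene, 35.2 kb downstream of its TSS. The FOXP1 region (chr3:71537258-71537458) lies in a FOXP1 intron, 46.4 kb downstream. The FOXQ1 region (chr6:1325646-1325846) is intergenic, 13.6 kb downstream, and the SOX13 region (chr1:204080423-204080623) lies in a SOX13 intron, 7.41 kb downstream.
FOXP4: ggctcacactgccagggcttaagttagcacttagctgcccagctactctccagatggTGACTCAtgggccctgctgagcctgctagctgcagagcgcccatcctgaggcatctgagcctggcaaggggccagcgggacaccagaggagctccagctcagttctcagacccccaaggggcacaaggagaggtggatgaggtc
FOXP1: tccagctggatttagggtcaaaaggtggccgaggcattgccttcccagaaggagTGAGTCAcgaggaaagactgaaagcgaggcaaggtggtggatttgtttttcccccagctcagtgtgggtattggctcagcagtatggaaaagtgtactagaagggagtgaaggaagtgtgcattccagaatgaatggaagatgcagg
FOXQ1: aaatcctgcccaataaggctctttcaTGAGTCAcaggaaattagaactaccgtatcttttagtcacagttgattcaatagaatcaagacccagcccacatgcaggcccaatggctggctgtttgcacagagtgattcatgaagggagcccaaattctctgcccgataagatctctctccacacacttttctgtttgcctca
SOX13: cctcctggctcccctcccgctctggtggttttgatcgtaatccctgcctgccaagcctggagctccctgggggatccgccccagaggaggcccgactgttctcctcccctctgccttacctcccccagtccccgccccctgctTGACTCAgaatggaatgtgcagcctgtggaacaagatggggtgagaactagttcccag

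The peak lists hold 28874 peaks in replicate 1 and 36319 in replicate 2. Each peak has a fold enrichment, the ratio of fragments at its summit to the local background. The weakest summits carried 16 and 13 fragments and the median summits 35 and 30, so the list of replicate 2 reaches sites with fewer fragments. A gene without a peak is therefore below the detection limit of its list rather than shown to be closed, and a peak in few cells cannot be told apart from a weak peak in all cells. Overlapping peaks were merged into regions, and 25366 of 37661 regions had a peak in both replicates.

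The epithelial label was checked with promoter peaks of marker genes. Of 12 airway epithelial markers, KRT18 and NKX2-1 had a peak in both replicates and KRT8 in replicate 2, whereas CDH1, EPCAM, KRT5, KRT14, KRT19, TP63, GRHL2, ELF3 and CLDN4 had none. Of 12 mesenchymal markers 10 had one in both, among them VIM, CDH2, FN1, TWIST1, ZEB1 and PRRX1, whereas COL1A2 and COL3A1 had none. Of all protein-coding genes, 52.3% had a promoter peak in both replicates. Peaks in both replicates were also found at 1 of 6 endothelial markers (KDR), 1 of 6 blood markers (CD14) and 3 of 6 melanocyte and neural crest markers (MITF, PMEL and ERBB3). The share of all genes was 73.1% for CpG-rich promoters, as defined below, and lower for CpG-poor ones. CpG-rich were 5 of 12 epithelial, 7 of 12 mesenchymal, 1 of 6 endothelial, 0 of 6 blood and 2 of 6 melanocyte markers. The lists were not matched for CpG content, so 52.3% is not a like comparison for them. The part of this marker pattern in the results on the 4 families was not tested.

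A promoter peak, within 1 kb of the canonical TSS, was present in both replicates at 27 of the 81 members. This is 33.3% (95% Wilson interval 24 to 44.1%, counting error only) beside 52.3% of all protein-coding genes. Replicate 1 alone had 27 members with a peak beside 53.2% of all genes, and replicate 2 had 30, or 37.0%, beside 58.0%. Taking either replicate gave the same 30 members beside 59.0% of all genes. FOXM1, FOXP1 and TBX6 had a peak in replicate 2 only, and such peaks in 1 replicate were found at 6.69% of all genes. The remaining 51 members had no promoter peak.

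By family, the FOX family had 17 of 42 (40.5%), the SOX family 5 of 17 (29.4%), the TBX family 3 of 13 (23.1%) and the PAX family 2 of 9 (22.2%). The shares rest on few genes and were not tested against each other. The promoter shares by group show the FOXO, FOXM, FOXK, FOXN and FOXJ genes above all protein-coding genes and every family as a whole below them.

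**Figure D1:**
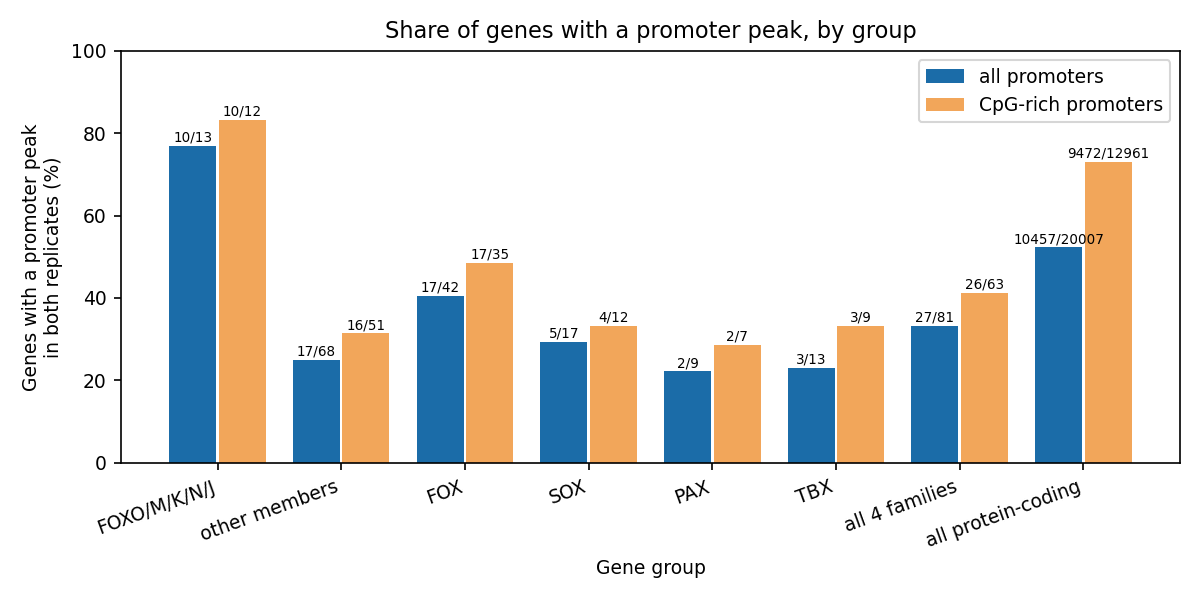
The bars give the share of genes (%) with a promoter peak in both replicates, for all promoters and for CpG-rich promoters, with counts above each bar. The 13 FOXO, FOXM, FOXK, FOXN and FOXJ genes reached 76.9%, the other 68 members 25%, and all protein-coding genes 52.3%.

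The FOXO, FOXM, FOXK, FOXN and FOXJ genes, a list made with earlier results of these data known, held much of the FOX total. Of the 13 FOXO, FOXM, FOXK, FOXN and FOXJ genes, 10 had a promoter peak in both replicates (76.9%), namely FOXO1, FOXO3, FOXO4, FOXO6, FOXK1, FOXK2, FOXN2, FOXN3, FOXJ2 and FOXJ3. FOXM1 had one in replicate 2 only. FOXN1, which directs the thymic epithelium, and FOXN4, a retinal factor, had none. The other 68 members had a peak in 17 cases (25%).

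FOXN2 had the highest mean promoter peak of the 27 members, with a fold enrichment of 15.7 in replicate 1 and 15.3 in replicate 2 (15.5 ± 0.309, SD, n = 2). Its summits held 132 and 124 fragments, at 348 and 375 bp upstream of the TSS, and the replicates were close. FOXK2, a regulator of glycolysis and autophagy genes, had fold enrichments of 11.1 and 13.4, and its relative FOXK1 had 7.10 and 7.93. The FOXK2 summit lay 96 bp upstream of the TSS in both replicates. FOXO6 had 9.79 and 11.98, with summits 751 and 784 bp upstream of the TSS. It is a FOXO gene best known from brain and liver.

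The FOXO genes that act downstream of AKT in most tissues had lower fold enrichments than FOXO6. FOXO1 had fold enrichments of 6.93 and 8.87, and FOXO3 had 5.41 and 4.60. The FOXO3 summits held 60 and 48 fragments, more than the 40 and 34 at FOXK1, so its ratio was low but its fragment counts were not. FOXO4 had 4.16 and 7.93, so its peak was above 10.2% of all peaks in replicate 1 and above 62.8% in replicate 2. FOXN3, a checkpoint repressor, had 11.1 and 7.71, from an intronic peak with summits 1022 and 962 bp downstream of the TSS. Within 500 bp of the TSS a second FOXN3 peak was left, with a mean fold enrichment of 6.60. FOXJ2 had 6.76 and 8.84, and FOXJ3, a factor of muscle and mitochondrial genes, had 7.10 and 7.02.

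FOXM1, which drives genes of mitosis, had a promoter peak of 6.12 fold with 26 fragments in replicate 2 and none in replicate 1. The peak spans the promoter of RHNO1, transcribed in the opposite direction, and the source of the signal between both genes cannot be told apart.

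The FOXP genes, of which FOXP1, FOXP2 and FOXP4 are expressed in lung epithelium, were divided. FOXP4 had a promoter peak of 6.58 fold in replicate 1 and 8.87 in replicate 2. FOXP1 had 4.08 fold with 17 fragments in replicate 2 only. FOXP2 and FOXP3, the factor of regulatory T cells, had none. When the TSS of any annotated transcript was allowed, FOXP1 gained a peak in both replicates, 519 kb downstream of its canonical TSS, with 4.68 and 6.80 fold.

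Among the 13 FOXC, FOXD, FOXF, FOXL, FOXQ and FOXS genes, known mainly from mesoderm and mesenchyme, 4 had a promoter peak in both replicates. FOXC1, a factor of the eye and of mesenchyme, had 9.29 and 6.59 fold. FOXD1, a kidney stroma factor, had 7.80 and 10.4, and FOXD2 had 9.39 and 8.13. FOXL2, the ovarian factor, had only 4.16 and 5.66, from a summit in its coding exon that also falls within the promoter window of FOXL2NB. No peak was found at the promoters of FOXC2, FOXD3, FOXD4, FOXF1, FOXF2, FOXL1, FOXL3, FOXQ1 and FOXS1. FOXF1 is the forkhead gene most closely tied to lung mesenchyme, and the nearest region to its promoter with a peak in both replicates was 65.3 kb away.

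Among the other FOX genes, known from endoderm, ectoderm and germ line, FOXA3 had a peak in both replicates. FOXA3, a liver and gut endoderm factor, had 9.53 and 16.3 fold, the widest gap between replicates of any member (12.9 ± 4.80, SD, n = 2). Its summits lay 1045 and 1047 bp upstream, the peak also falls within the promoter window of SYMPK, and it was no longer counted when the summit had to lie within 1 kb. FOXB1, FOXB2, FOXE1, FOXE3, FOXH1, FOXI1, FOXI2, FOXI3, FOXR1 and FOXR2 had none, among them FOXI1, the gene of airway and kidney ionocytes.

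**Figure D2:**
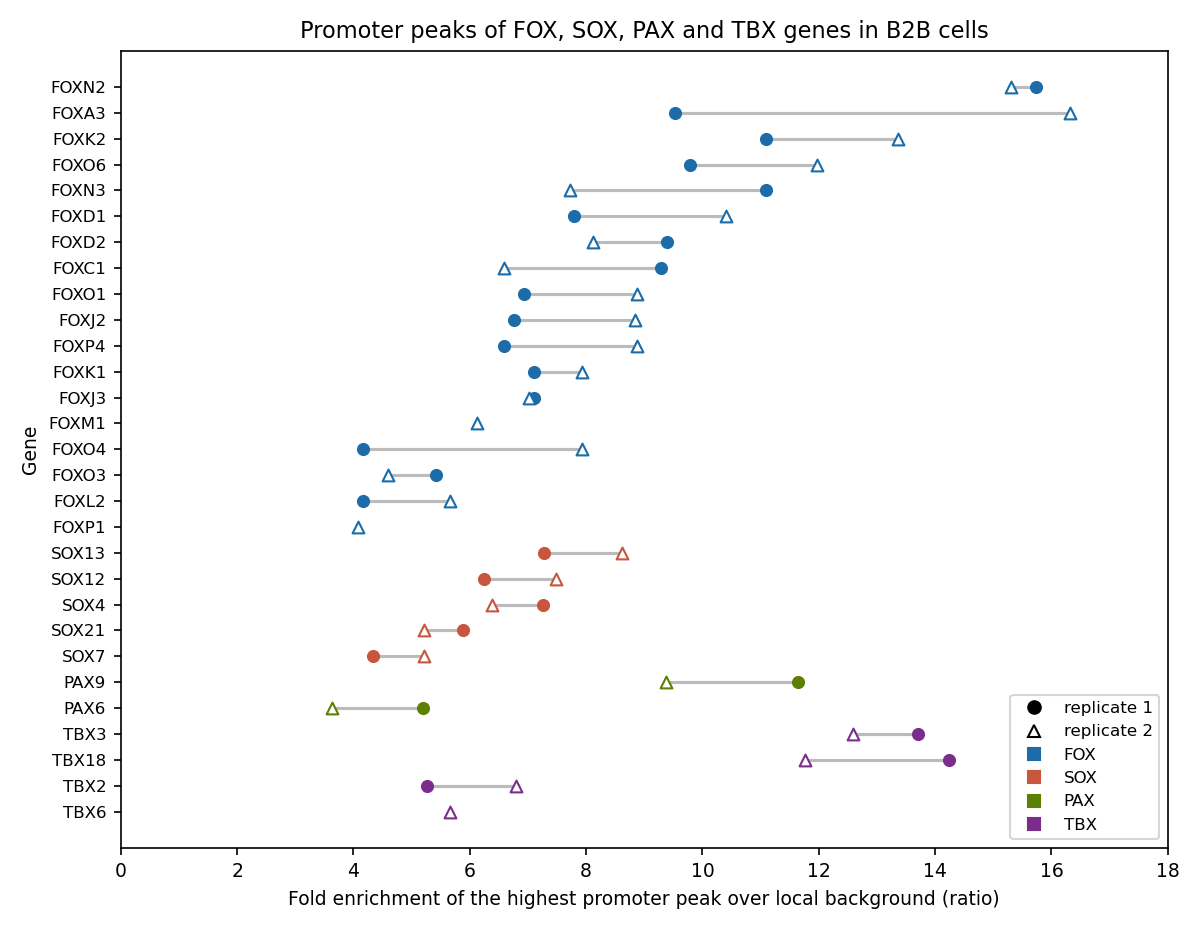
The rows are members with a promoter peak in at least 1 replicate, with 1 such member not drawn, and the horizontal axis gives the fold enrichment (ratio) of its highest promoter peak, with filled circles for replicate 1 and open triangles for replicate 2. FOXN2, FOXK2, TBX3 and TBX18 had at least 11.1 fold in both replicates, while FOXM1, FOXP1 and TBX6 show a triangle alone.

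In the SOX family, the SOXC group of neural and mesenchymal progenitors had peaks at 2 of 3 promoters. SOX4 had 7.26 fold in replicate 1 and 6.38 in replicate 2, and SOX12 had 6.25 and 7.49. The highest SOX12 peak was not the same one in both replicates. It lay 1033 bp upstream of the TSS in replicate 1 and 129 bp upstream in replicate 2, and both sites carried a peak in each replicate. SOX11, the third gene of the group, had none, and its nearest region with a peak in both replicates was 2015 kb away, the farthest of any member.

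SOX13, a SOXD gene, had the highest mean fold enrichment of the family (7.94 ± 0.942, SD, n = 2), with 7.28 and 8.61 fold. Its summits held 41 and 37 fragments, fewer than the 73 and 82 at the highest SOX12 peaks. SOX21, which opposes the SOXB1 activators, had 5.89 and 5.21. SOX7, an endothelial gene, had 4.33 and 5.21, both near the weak end of the lists, with summits 312 and 552 bp downstream of the TSS. No promoter peak was found at SOX1, SOX3, SOX14, SOX5, SOX6, SOX8, SOX10, SOX17, SOX18, SOX15 or SOX30. SOX10 is the neural crest and glial factor, and SOX17 and SOX18 act with SOX7 in endothelium.

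The SOX6 gene carried peaks at other start sites than the canonical one. One lay 249 kb upstream, with 5.72 and 7.93 fold. The other lay 382 kb upstream, with 20.3 and 17.2 fold, in a promoter shared with C11orf58, so the signal of the 2 genes cannot be told apart there. SOX30, a testis gene, had 5.20 and 6.34 fold at a start site 19.04 kb upstream that it shares with C5orf52.

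PAX9 and PAX6 were the 2 PAX genes with a promoter peak in both replicates. PAX9, a factor of the pharyngeal pouches and teeth, had 11.6 and 9.37 fold (10.5 ± 1.60, SD, n = 2), with summits 14 and 27 bp upstream of the TSS. PAX6, the eye factor, had 5.20 and 3.62, with only 15 fragments at the summit and a −log10 q of 3.72 in replicate 2. Its summits lay 1050 and 874 bp downstream of the TSS, and it was lost in 4 of the alternative settings. PAX1, PAX2, PAX3, PAX4, PAX5, PAX7 and PAX8 had none. They include PAX3 and PAX7 of muscle and neural crest, and PAX5 of B cells.

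PAX8, which is needed in thyroid and kidney, had no peak at its canonical TSS but a strong one within the gene. At 37.8 kb downstream, in an untranslated exon beside another annotated start site, it reached 14.9 fold in replicate 1 and 14.4 in replicate 2. A weaker region lay 38.5 kb downstream (5.02 and 6.48) and another 5.14 kb upstream (9.70 and 13.6). The replicates ranked these 3 regions alike.

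In the TBX family, TBX3 and TBX18 had strong promoter peaks. TBX18, known from the epicardium and the pacemaker region of the heart, had 14.2 fold in replicate 1 and 11.8 in replicate 2, with 150 and 122 fragments at the summits. TBX3 had 13.7 and 12.6, in peaks 913 and 1070 bp wide. TBX3 and TBX2 are related repressors that can delay senescence. TBX2 had 5.26 and 6.79 fold, in peaks 1011 and 412 bp wide.

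TBX6, a factor of the presomitic mesoderm, had 5.66 fold with 24 fragments in replicate 2 only. No promoter peak was found at TBX1, TBX4, TBX5, TBX10, TBX15, TBX19, TBX20, TBX21 and TBX22. TBX1 is a pharyngeal factor, TBX4 and TBX5 pattern limbs and lung mesenchyme, TBX20 acts in the heart and TBX21 in T helper cells. The nearest region with a peak in both replicates was 278 kb from TBX5 and 750 kb from TBX22.

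The promoter peaks of members were somewhat lower than those of other genes with a peak. For the 27 members the median was 7.10 fold in replicate 1 and 7.93 in replicate 2 (7.52 ± 0.584, SD, n = 2), beside 8.14 and 9.64 (8.89 ± 1.06, SD, n = 2) for all genes with a peak in both lists. The members were lower within each replicate, while the difference between replicates was of similar size. Peaks at least 500 bp wide were as common as among all genes in replicate 1 (48.1% beside 47.2%) and less common in replicate 2 (37.0% beside 58.0%), a comparison that was not tested. The summit lay over 300 bp from the TSS for 9 members in replicate 1 and 8 in replicate 2 (33.3% and 29.6%), beside 17.4% of genes in either replicate. Across the 27 members the fold enrichments of both replicates had a Spearman correlation of 0.757, and across all such genes 0.857. Genes in 1 library share its depth, so these are descriptions.

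Promoter peaks were also counted by CpG content. A promoter was called CpG-rich where the 500 bp to either side of the TSS had an observed to expected CpG ratio of at least 0.6 and a GC content of at least 50%. By this rule 63 of 81 members were CpG-rich (77.8%), beside 64.8% of all genes. Of these CpG-rich members, 26 had a promoter peak in both replicates (41.3%), beside 73.1% of all CpG-rich promoters. With stricter limits of 0.75 and 55%, the counts were 22 of 48 (45.8%) beside 76.8%. SOX4 was the 1 of 18 CpG-poor members with a peak (5.56%), beside 14% of CpG-poor promoters. It lay just under the limits, with a CpG ratio of 0.581 and a GC content of 47.7%.

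The CpG-rich FOXO, FOXM, FOXK, FOXN and FOXJ promoters had a peak in 10 of 12 cases (83.3%), beside 73.1% of all CpG-rich promoters. The CpG-rich promoters of the other members had one in 16 of 51 (31.4%). The 34 CpG-rich members without a peak in either replicate included SOX1, SOX8, SOX11, SOX17, PAX1, PAX2, FOXF1, FOXF2, TBX1, TBX4 and TBX20. In the plot of CpG content, they lie among the members with a peak.

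**Figure D3:**
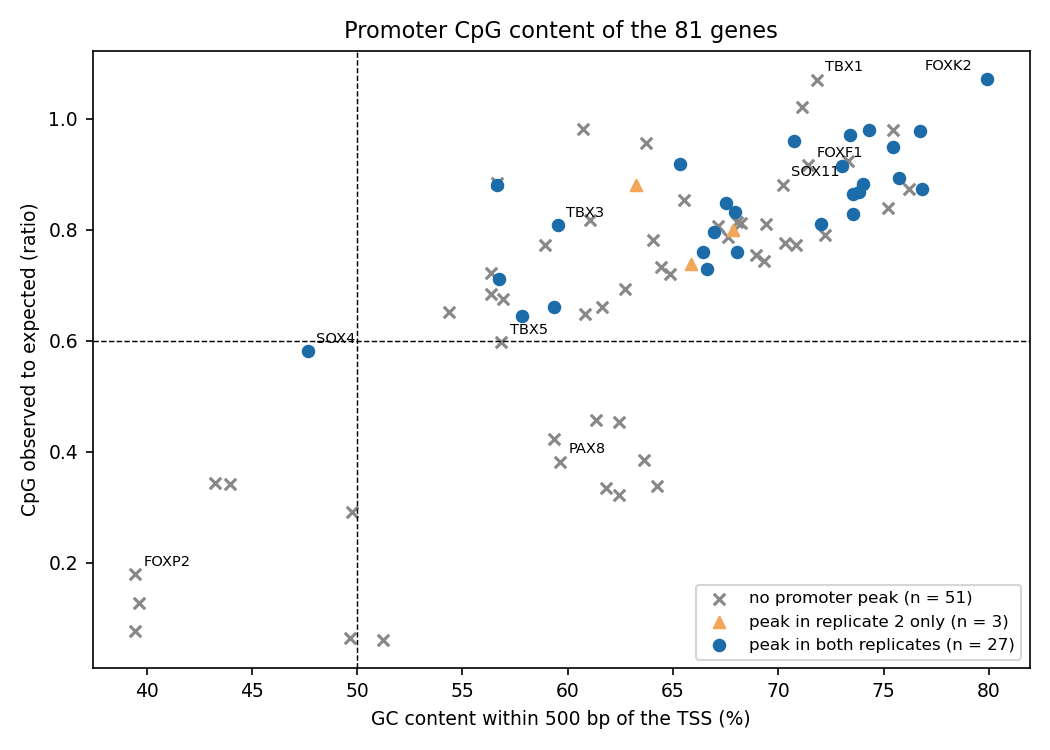
Each point is 1 of the 81 members, with the GC content (%) within 500 bp of its TSS on the horizontal axis and the observed to expected CpG ratio on the vertical axis; dashed lines mark the limits of 50% and 0.6. Members with a promoter peak in both replicates and without one overlap in the CpG-rich field, and SOX4 is the single member with a peak outside it.

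The count of members depended on how a promoter was defined. Allowing the TSS of any annotated transcript gave 32 members (39.5%), beside 56.2% of all genes, and added FOXL1, FOXP1, PAX8, SOX6 and SOX30. A window of 3 kb gave 30 members (37.0%), beside 54.7%, and added FOXH1, FOXL1 and FOXS1. The region that added FOXH1 is a promoter of PPP1R16A. The members stayed below all genes under both definitions.

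Accessible regions that touched no window of 1 kb around the canonical TSS of a protein-coding gene, here called distal, were more frequent near members. Regions at other annotated start sites count as distal here, among them those that added FOXL1 and PAX8 above. At least 1 distal region with a peak in both replicates lay within 50 kb of the TSS of 43 members (53.1%, 95% Wilson interval 42.3 to 63.6%), beside 40.2% of all genes. The mean was 0.938 regions per member, beside 0.677. Of the 27 members with a promoter peak 19 had a distal region (70.4%), beside 43.7% of all genes with one. Of the 51 members without a promoter peak 23 had one (45.1%), beside 35.3% of all genes without one. These shares were not tested, and the number of genes per 50 kb, which also sets how many regions count as distal, was not matched.

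By family, a distal region was found near 26 of 42 FOX genes (61.9%), 6 of 9 PAX genes (66.7%), 7 of 17 SOX genes (41.2%) and 4 of 13 TBX genes (30.8%). The mesodermal FOXC, FOXD, FOXF, FOXL, FOXQ and FOXS genes had one in 10 of 13 cases, though only 4 of them had a promoter peak. At least 3 distal regions lay near 10 members (12.3%), beside 6.56% of all genes. These were FOXC1, FOXD2, FOXE3, FOXK1, FOXL2, FOXS1, SOX7, PAX8, TBX2 and TBX4. The neighbours FOXD2 and FOXE3 count the same 3 regions, and so do TBX2 and TBX4. No member had over 3. Within 50 kb of 25 members (30.9%) no region with a peak in both replicates was found, promoters of other genes included, beside 20.6% of all genes. No peak of either replicate was found there for 21 members (25.9%), beside 15.3%.

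**Figure D4:**
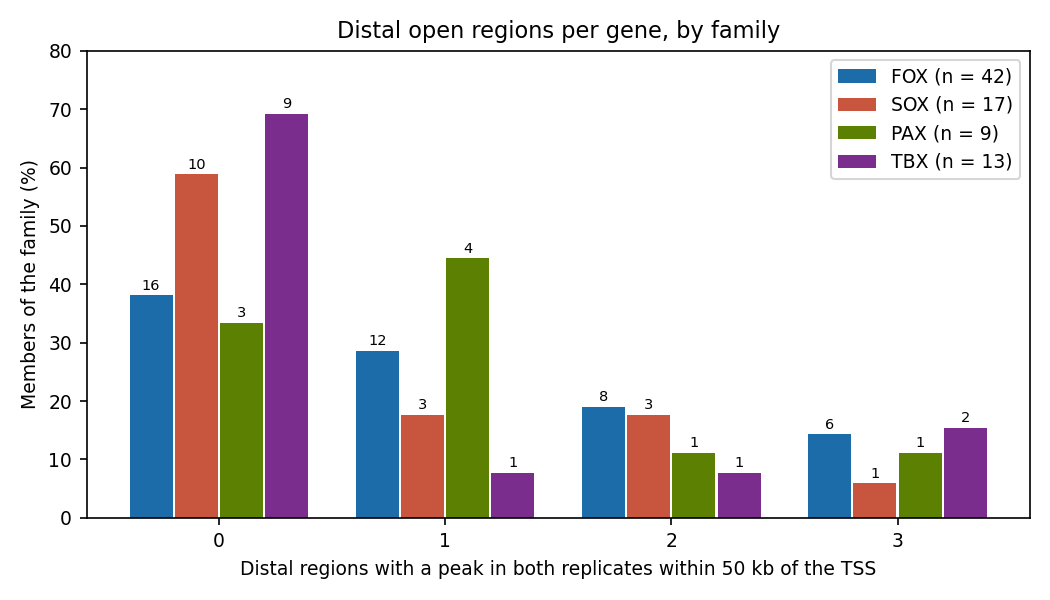
The bars give the share of each family (%) with 0, 1, 2 or 3 distal regions with a peak in both replicates within 50 kb of the TSS, with the number of genes above each bar. Of the TBX genes 9 of 13 had none, and of the FOX genes 16 of 42.

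The 3 strongest distal regions each lay within 50 kb of a member without a promoter peak. The region 24.2 kb downstream of FOXE1, a thyroid factor, had 16.1 fold in replicate 1 and 19.5 in replicate 2. An intron of TBX19, the pituitary factor of POMC expression, held a region of 15.6 and 17.9 fold, 21.0 kb downstream of its TSS. The intergenic region 6.86 kb upstream of FOXE3, a lens factor, had 15.6 and 16.0 and also lay 28.6 kb upstream of FOXD2. Near members with a promoter peak of their own, FOXL2 had a region of 12.99 and 12.8 fold at 31.5 kb downstream, and FOXJ2 one of 11.1 and 16.4 at 5.95 kb upstream.

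Other members without a promoter peak had distal regions of moderate height. FOXS1, a forkhead gene of pericytes and neural crest, had one 3.43 kb downstream with 5.02 and 8.18 fold and 2 others over 34 kb upstream, in TTLL9, with 7.62 and 8.38, and 5.02 and 5.89. FOXI1 had one 45.4 kb downstream with 9.36 and 12.2. PAX5 had one in its own intron, 6.53 kb downstream, with 9.70 and 6.34. FOXD3, a neural crest factor, had 6.41 and 11.3 at 5.41 kb upstream and 8.14 and 6.80 at 5.16 kb downstream.

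SOX18 had distal regions of 5.54 and 8.35 fold at 10.8 kb downstream and 4.85 and 5.21 at 39.2 kb upstream. SOX7 had 10.7 and 11.3 at 19.2 kb downstream, in an intron of RP1L1, higher than at its own promoter. SOX4 had 5.37 and 5.55 at 6.21 kb upstream, and TBX18 had 8.66 and 10.7 at 10.3 kb upstream. No distal region was found within 50 kb of SOX11, SOX17, FOXF1, TBX1 or TBX5.

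In all, 68 distinct distal regions lay within 50 kb of a member, 8 fewer than the 76 pairs of member and region, since neighbouring members share some. Their summits were intergenic in 32 cases, in introns in 17, in exons or introns of long non-coding RNAs in 7 and 3, in untranslated exons in 7 and in coding exons in 2. Only 12 lay within the body of the member itself. Their median was 5.71 fold in replicate 1 and 6.80 in replicate 2 (6.26 ± 0.766, SD, n = 2), beside 6.06 and 7.48 (6.77 ± 0.999, SD, n = 2) for all 14831 distal regions. Within 50 kb of the members, with promoter regions included, 78 regions had a peak in 1 replicate only, 64 of them in replicate 2.

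For members without a promoter peak, the nearest region with a peak in both replicates was a median of 45.1 kb from the TSS (n = 51), beside 43.1 kb for all genes without a promoter peak. It was over 100 kb away for 14 members (27.5%), beside 25.6% of those genes. SOX5 (951 kb), FOXP2 (405 kb) and SOX1 (328 kb) were among the farthest.

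Several members are neighbours in the genome. There were 5 groups in which members lie within 500 kb of the next, with 12 members in all, and 4 of these had a promoter peak in both replicates (33.3%), the same share as among all 81 members. No group had more than 1 such member.

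On chromosome 6, FOXQ1, FOXF2 and FOXC1 span 298 kb, and FOXC1 was the one with a promoter peak. Across this span and its flanks of 50 kb, 14 regions had a peak in both replicates and 12 were distal. The strongest had 14.4 fold in replicate 1 and 16.8 in replicate 2, in intergenic sequence 91.9 kb downstream of FOXF2. It was higher than the FOXC1 promoter in both replicates. Of the 12 distal regions 3 held an AP-1 motif (25%), a share near those of the members' distal regions (22.1%) and all distal regions (32.9%).

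On chromosome 17, TBX2 had a promoter peak and TBX4, 52.6 kb away, had none. Their 3 distal regions all lay 9.88 to 12.7 kb downstream of TBX2, in long non-coding RNA genes, with 6.64 and 5.57 fold in the strongest. On chromosome 16, FOXF1, FOXC2 and FOXL1 span 68.0 kb and none had a promoter peak. A region 2.65 kb upstream of FOXL1 had 3.81 and 5.89 fold, and one 30.7 kb downstream had 4.85 and 4.08. Between FOXF1 and FOXC2 no peak was listed in either replicate.

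On chromosome 1, FOXD2 had a promoter peak and FOXE3, 21.8 kb away, had none, with 3 distal regions in the span and its flanks. On chromosome 12, TBX3 had the only region with a peak in both replicates, and TBX5, 278 kb away, had none.

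**Figure D5:**
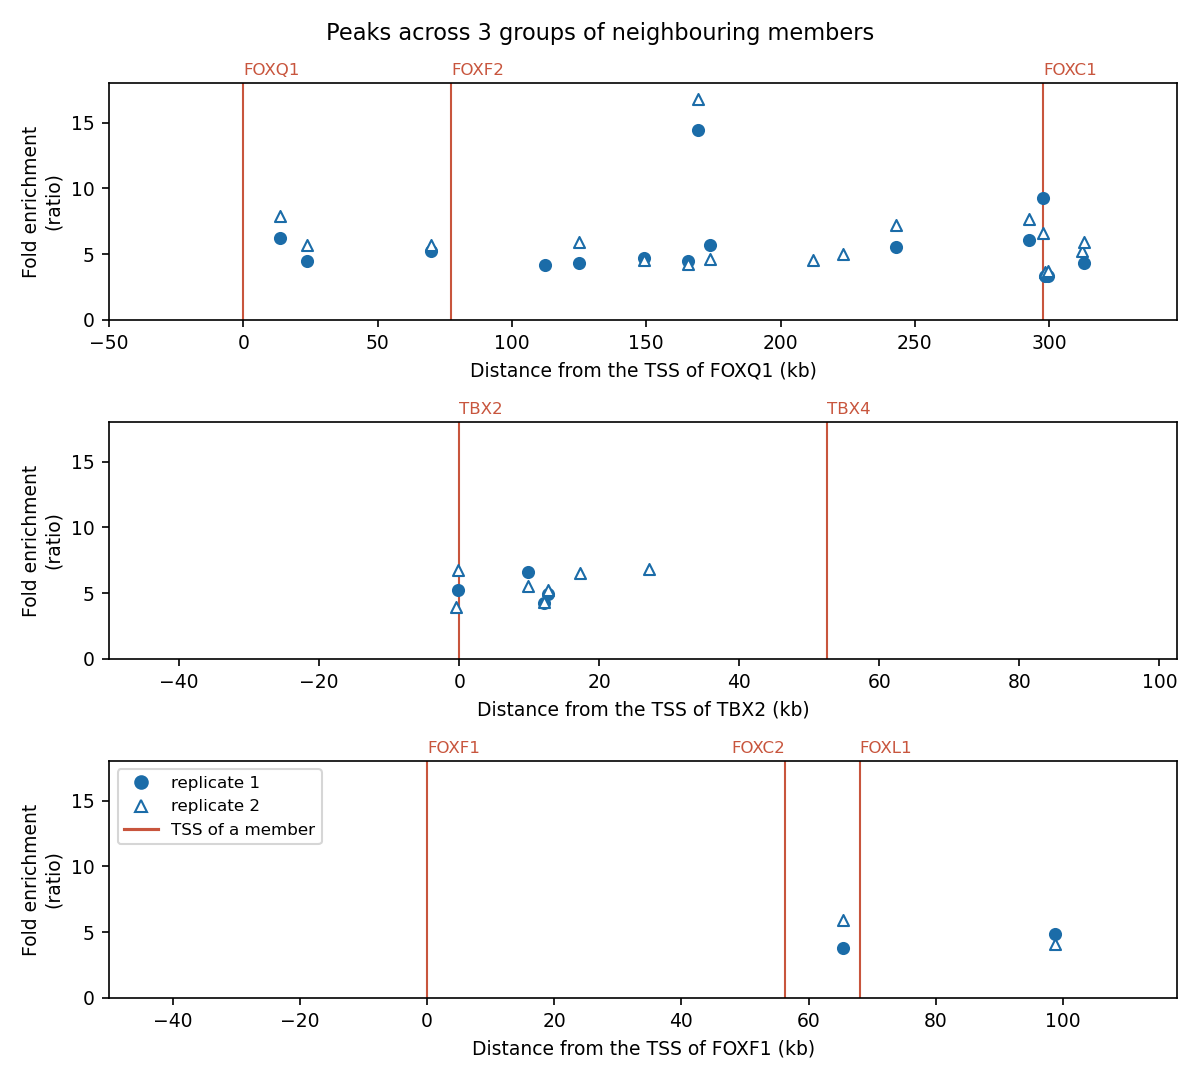
Each panel shows 1 group of neighbouring members, with the distance from the TSS of its first gene (kb) on the horizontal axis, the fold enrichment (ratio) of peaks on the vertical axis, filled circles for replicate 1 and open triangles for replicate 2, and vertical lines at the TSSs. Peaks spread over the FOXQ1, FOXF2 and FOXC1 span, cluster beside TBX2, and are limited to 2 regions around FOXC2 and FOXL1.

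Motifs were searched within 100 bp of the summits of the 68 distal regions, on both strands. The AP-1 letters were found in 15 (22.1%, 95% Wilson interval 13.8 to 33.3%), beside 32.9% of all distal regions. Equally long windows placed 1000 bp away on both sides held them in 3.68% of 136 cases. The AP-1 share of member regions was thus above that of their flanks and below that of all distal regions, and none of these differences was tested. No promoter region of a member held the motif (0 of 35), beside 2.93% of all promoter regions.

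The regions with an AP-1 motif lay near FOXK2, FOXL2, FOXN2, FOXN3, FOXO6, FOXP1, FOXP4, FOXQ1, FOXS1, PAX7, PAX8, SOX7, SOX13 and TBX19, with 2 near SOX7. Of those printed above, the FOXP4 region had 7.62 fold in replicate 1 and 12.7 in replicate 2, and the FOXP1 region 6.41 and 11.8. The FOXQ1 region had 6.24 and 7.93, and the SOX13 region 5.72 and 5.89. Each was thus present in both replicates and higher in replicate 2, as was the median of all distal regions (6.06 and 7.48). The FOXN3 region, in an annotated FOXN3 intron 8.84 kb upstream of the canonical TSS, had 11.6 and 8.84.

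Motifs of the families themselves were rare. The forkhead letters TGTTTAC or GTAAACA were found in 0 of 68 regions (upper limit of the Wilson interval 5.35%), beside 3.08% of all distal regions. The SOX letters ACAATGG or CCATTGT were found in 1 (1.47%), at PAX8, beside 1.83%. The T-box letters AGGTGTGA or TCACACCT were found in 1 (1.47%), the strong PAX8 region that also held an AP-1 motif, beside 0.337%. A match of letters is a description and not a bound site, and regions without one may hold other spellings.

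The 5 family members left out by the rule include the factors of airway epithelium. FOXA1 had 3.90 fold in replicate 1 and 3.17 in replicate 2, FOXJ1 had 6.24 and 9.06, and SOX9 had 8.42 and 6.76. The FOXA1 peak of replicate 2 was weak, lower than that of PAX6 (3.62), which was above only 1.49% of the peaks in that list. FOXA2 and SOX2 had no promoter peak.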

How the data were processed

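The data were the ATAC-seq peak lists of both B2B replicates. Per the study's methods, the authors aligned reads with Bowtie2 (2.4.4) against hg38, discarded duplicates by a script of their own, and ran MACS2 (2.2.7.1) on each replicate with no further removal of reads. SAMtools (1.13) is also named in the submitters' processing notes, which give the versions. The shift of Tn5 cut sites, the control and the q limit are not given in the sources used here. The deposited lists give for each peak the summit position, a score, a fold enrichment (a linear ratio over local background), and p and q as −log10. The score was not used.

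The 28735 and 36162 peaks of the autosomes and sex chromosomes were taken. Read totals are unknown, so the fragments under a summit were derived from its −log10 p and fold enrichment, met within 0.01, which gave whole fragments for 99.7% and 99.8% of peaks. Peaks were joined by an overlap of 1 bp. Promoters and canonical TSSs came from GENCODE 44, and RefSeq tables were not used. No test was run. Overlap, motif search and fragment counts were tested on simulated data. For the fragment counts, the simulated local backgrounds were lower than those of some members, among them FOXO3, SOX12 and FOXC1. The alternatives tried were equal numbers of peaks, a limit of 5 on the −log10 q, an overlap of 50%, other windows (500 bp and 3 kb for promoters, 25 and 100 kb for loci), any annotated TSS, stricter CpG limits, other motif settings, and each replicate alone. Members were named with values where they had the 3 highest promoter peaks or the 2 highest counts of distal regions in a family, a peak in 1 replicate, 3 distal regions without a promoter peak, a neighbouring member, or a known role in lung or in all cells, and others after their values were seen. The values of 1 member with a promoter peak in both replicates, and some other results, are not reported here. The members and lists were chosen with earlier results of these data known. Python 3.11.15, pandas 2.3.3, numpy 2.4.6, scipy 1.17.1, pysam 0.24.0 and matplotlib 3.10.9 were used.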

Additional observations from a re-analysis of the deposited data

How the results depend on the processing

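Both lists come from 1 condition and 1 line, so the values carry the spread of 2 replicates only, and weak sites are limited by depth. Every alternative run left the members' share of promoter peaks below that of all protein-coding genes, where the main difference was −18.9 percentage points. The difference was −17.9 with equal numbers of peaks, −21.3 with a window of 500 bp, −17.6 with 3 kb, −16.7 with any annotated TSS and −20.9 with the summit inside the window, and it ran from −21.0 to −19.9 in single replicates. The share itself was 29.6% with 500 bp, 37.0% with 3 kb, 39.5% with any annotated TSS and 33.3 to 37.0% in single replicates. The PAX count was 1 when the −log10 q had to reach 5, with equal numbers of peaks, with 500 bp and with the summit inside the window, since PAX6 was lost. The count of CpG-poor members with a promoter peak in both replicates was 3 with 3 kb, 3 with any annotated TSS and 5 with stricter CpG limits. The median over members of the mean fold enrichment was 7.80, and 7.10 to 7.82 in single replicates. The median number of distal regions was 0 within 25 kb and 0 with an overlap of 50%. The distal regions numbered 40 within 25 kb, 119 within 100 kb and 85 to 109 in single replicates. The share with an AP-1 motif was 27.7% within 100 kb, 11.8% within 50 bp of the summit, 29.4% over whole regions and 27.9% with TGANTCA. The share of all distal regions under the other motif settings is not given here, so those values have no like comparison. Replicate 2 decided the 3 extra members FOXM1, FOXP1 and TBX6. No paired analysis was possible because both replicates belong to the same group.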

Other observations

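Of 6 genes of TLE corepressors, which some factors of these families bind, 4 had a promoter peak in both replicates (66.7%), beside 52.3% of all protein-coding genes and 73.1% of those with a CpG-rich promoter, with 14.8 and 13.7 fold at TLE1 and 13.4 and 12.3 at TLE4. Of 8 partners of T-box factors in the heart, GATA6, NKX2-5, HAND1 and MEF2A had one in both replicates (50%). This is near the 52.3% of all genes but below the 73.1% of CpG-rich promoters, the class of 7 of these 8 genes. MEF2C had one in 1 replicate, and GATA4, GATA5 and HAND2 had one in neither. Among family members with other kinds of symbol, EOMES had 5.89 and 6.57 fold, and TBXT, TBR1 and MGA had none.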
